A study of Mus musculus with 6 samples.

Results

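The miR-199 and miR-214 miRNAs are 5 mature miRNAs read on single-colour Agilent mouse miRNA arrays: mmu-miR-199a-5p, mmu-miR-199a-3p, mmu-miR-199b-5p, mmu-miR-214-3p and mmu-miR-214-5p, written below without the prefix for mouse. They were taken by name from the non-control spots of the scanner files, whether detected or not, and are 5 of the 1247 miRNAs on each array. The arrays compared sorted mammary cells of virgin wild-type FVB/N-J mice in 2 populations with 3 arrays each. P4 is Lin-CD24+CD29hi and enriched for mammary stem cells (MaSC), and P5 is Lin-CD24+CD29lo and enriched for luminal cells, or luminal progenitors in a second label. Lin- means that cells with markers of blood and vessel lineages were gated out, CD24 is an epithelial surface marker and CD29 is integrin beta 1. No age, and nothing on whether arrays came from separate mice or sorts, is in the labels used here, so p-values measure only the spread between these arrays, which may be technical. Both populations are enrichments of mixed cells, and fewer cells of a type and less miRNA per cell cannot be told apart.

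A miRNA pairs with target mRNAs through its seed, the bases near its 5′ end, and lowers their stability and translation, and each hairpin precursor can give a 5p and a 3p mature arm. miR-199a and miR-214 are best known from mesenchyme, where both are cut from the long noncoding RNA Dnm3os, which the transcription factor Twist1 activates. In mammary stem cells miR-199a has been reported to repress Lcor, a nuclear receptor corepressor, and miR-199a-3p is known to repress mTOR and the receptor MET in human cells.

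The mature sequences of 4 members were matched by name in RefSeq (GRCm38.p6). They are shown with the seed, bases 2 to 8, in capitals, to show that the arms have no seed in common with each other.
miR-199a-5p: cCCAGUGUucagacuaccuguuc
miR-199a-3p: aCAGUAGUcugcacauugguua
miR-214-3p: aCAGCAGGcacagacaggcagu
miR-214-5p: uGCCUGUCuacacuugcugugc
One other miRNA on the array, miR-761, shares a member's seed, that of miR-214-3p, and it was detected on no array.

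The hairpins of the 3 miR-199 genes, from RefSeq and the same build, are shown because they limit what the probes can separate. Capitals mark the mature arms that the table lists.
Mir199a-2: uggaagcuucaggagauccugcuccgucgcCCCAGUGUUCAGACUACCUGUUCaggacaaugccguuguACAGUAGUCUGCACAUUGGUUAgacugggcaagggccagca
Mir199a-1: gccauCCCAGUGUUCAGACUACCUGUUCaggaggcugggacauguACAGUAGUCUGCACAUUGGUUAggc
Mir199b: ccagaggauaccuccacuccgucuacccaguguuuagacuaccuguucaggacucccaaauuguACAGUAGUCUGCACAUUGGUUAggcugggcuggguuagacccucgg
All 3 hairpins hold the sequence of miR-199a-3p, so its probes read the output of all 3 genes together, miR-199b-3p included. The run in Mir199b closest to miR-199a-5p begins at base 26 of the hairpin and differs from it at 1 base, C10U, counted from the 5′ end of miR-199a-5p. The seed is the same in both. The files hold no probe sequences, and how far the 2 sets of 5p probes read each other's target was not tested.

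Mir199a-2 lies at chr1:162217814-162217923 on the plus strand, within the gene Dnm3os on the same strand and within Dnm3 on the opposite strand. Mir214 lies 5444 bases further along the same transcript, at chr1:162223368-162223477. Mir199a-1 lies at chr9:21496495-21496564 on the minus strand, opposite to Dnm2, and Mir199b at chr2:32318460-32318569 on the plus strand, opposite to Dnm1. Dnm1, Dnm2 and Dnm3 encode dynamins, which pinch off membrane vesicles. These positions are of the RefSeq table's build, GRCm38.p6, while the array design names mm9 without giving probe positions.

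All 3 arms of miR-199 were higher in P4 than in P5, and no P4 array overlapped a P5 array in any of them. The fold was 11.4 for miR-199a-3p, the arm detected on all arrays. This size depends on the processing too: its log2 difference was 3.52 here, 2.86 with no scaling and 2.22 with normexp background correction. The folds of the 5p arms, 12.6 for miR-199a-5p and 12.1 for miR-199b-5p, are against P5 signals at the edge of detection and depend on the floor and the background correction. Neither arm of miR-214 was called detected on any array. The values below are Agilent's background-subtracted processed signal, in intensity units. They are also given as log2 of that signal scaled to the 75th percentile of the miRNAs detected on all 6 arrays. A floor of -5.49 on the log2 scale replaced lower values. The scaling signal was 186, 382 and 273 units on P4 replicates 1 to 3 and 526, 457 and 315 units on P5 replicates 1 to 3. Differences in favour of P4 are thus larger with scaling than without it, and which is closer to the content of the cells was not tested. Agilent's flag called 325 to 384 miRNAs detected on P4 arrays and 367 to 419 on P5 arrays.

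miR-199a-3p, the arm that comes from all 3 hairpins, had 106, 293 and 458 intensity units on the P4 arrays, against 38.7, 41.2 and 23.3 units on the P5 arrays. On the log2 scaled signal these were -0.81, -0.38 and 0.75 in P4, against -3.77, -3.47 and -3.76 in P5. It was the one member detected on all 6 arrays. Every one of its 40 spots was well above background on each P4 array, and 40, 40 and 14 of them were so on P5 replicates 1, 2 and 3. Its mean was -0.15 ± 0.80 in P4 and -3.66 ± 0.17 in P5 (SD, n = 3 each). The difference was 3.52 ± 0.38 (SE), or 11.4-fold, with an adjusted p of 0.000399 by limma with Benjamini-Hochberg adjustment over the 370 miRNAs tested. On the log2 scaled signal its P4 and P5 arrays lay at least 2.66 apart, more than the spread within either population. Without scaling this does not hold, since the lowest P4 array (106 units) was nearer to the highest P5 array (41.2) than to the highest P4 array (458).

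miR-199a-5p, the arm cut from Mir199a-1 and Mir199a-2, had 39.6, 113 and 121 units in P4, against 12.3, 12.3 and 6.63 units in P5. On the log2 scaled signal these were -2.23, -1.75 and -1.18 in P4, against -5.42, -5.22 and -5.49 in P5, the last of which is the floor. All 40 spots were well above background on each P4 array, while on the P5 arrays 1, 0 and 0 of the 40 spots were. Agilent's flag called it detected on P5 replicate 2 alone. It was higher in P4 by 3.65 ± 0.27 (SE), or 12.6-fold, with an adjusted p of 6.24e-05 (limma). It entered the test through its detection on the P4 arrays alone, where it is high. The size and the p rest on P5 values at or near the floor, which holds their spread small.

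miR-199b-5p, from Mir199b, had 49.8, 139 and 219.5 units in P4, against 17.8, 19.4 and 9.74 units in P5. On the log2 scaled signal these were -1.90, -1.46 and -0.32 in P4, against -4.89, -4.56 and -5.01 in P5. It was detected on P5 replicates 1 and 2, where 6 and 15 of its 40 spots were well above background, and not on replicate 3, where 0 were. It was higher in P4 by 3.60 ± 0.39 (SE), or 12.1-fold (adjusted p = 0.000411, limma). It too entered the test through the P4 arrays alone.

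**Figure D1:**
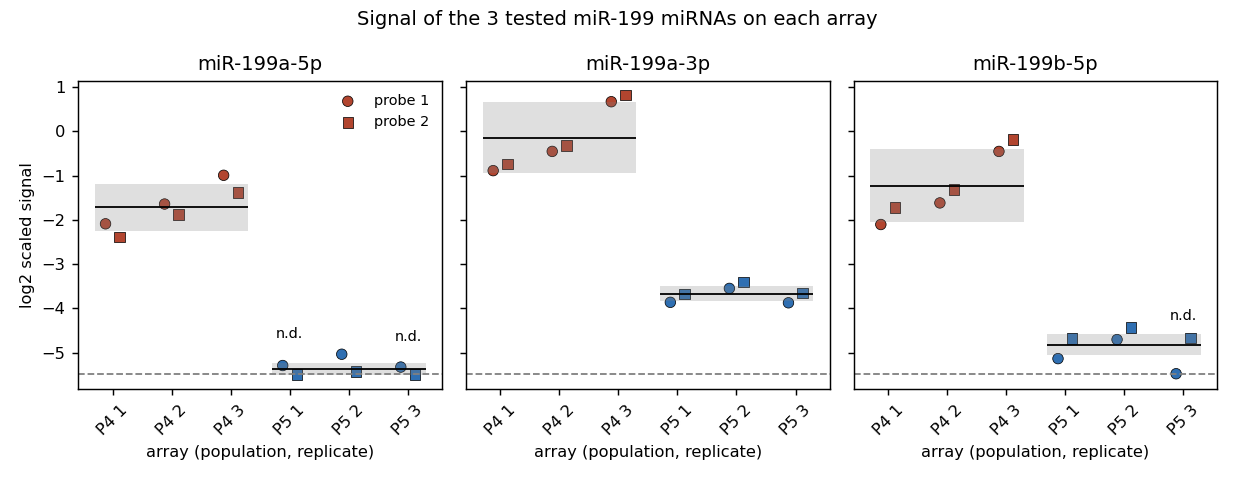
Log2 scaled signal of miR-199a-5p, miR-199a-3p and miR-199b-5p (vertical axis) on each P4 array (red) and P5 array (blue), with 1 point per probe. Lines and grey boxes are the mean and SD over 3 arrays, the dashed line is the floor of -5.49, and n.d. marks an array where the miRNA was not called detected. In each panel the P4 arrays lie above the P5 arrays, and P4 replicate 3 lies highest.

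Each of the 3 arms was read by 2 probes with 20 spots each. The log2 difference was 3.54 and 3.50 by the probes of miR-199a-3p, 3.64 and 3.59 by those of miR-199a-5p and 3.71 and 3.51 by those of miR-199b-5p. Every P4 array lay above every P5 array for all 6 probes. The second probe of miR-199a-5p stood at the floor on P5 replicates 1 and 3, so its value is set in part by the floor.

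Of the 370 tested miRNAs, 51 or 13.8% were called higher in P4 and 76 or 20.5% were higher in P4 with no overlap between the groups. In either direction 27.8% were called and 42.2% did not overlap. miR-199a-3p was among both. miR-199a-5p and miR-199b-5p were too, but they were tested only because P4 detected them, so their calls are not read against these shares. The 3 arms took places 8 (miR-199a-5p), 9 (miR-199b-5p) and 11 (miR-199a-3p) of 370 by the size of the difference in favour of P4. By array signal they were of middle rank in P4, at places 139, 121 and 83 of 370 in the same order, and lower in P5, at 357, 333 and 245. These places describe array brightness and not molar amounts, since probes differ in brightness.

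**Figure D2:**
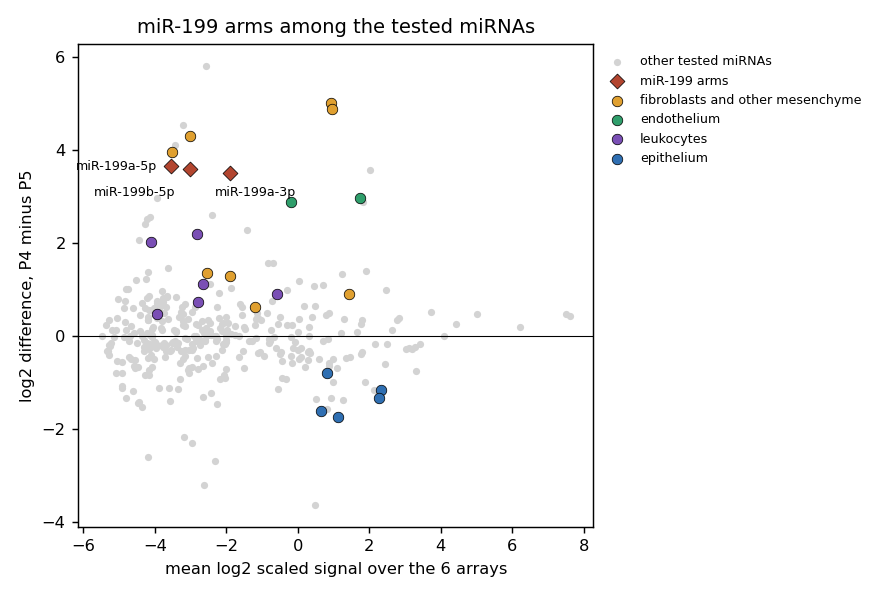
Log2 difference P4 minus P5 (vertical axis) against the mean log2 scaled signal over 6 arrays (horizontal axis) for the 370 tested miRNAs. The miR-199 arms (red diamonds) lie between 3.52 and 3.65, below the highest mesenchyme markers (orange) and above the endothelial (green) and leukocyte markers (purple).

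miR-214-3p, which lies on the same transcript as miR-199a-2 and is known to repress Ezh2, was below detection throughout. Its signal there was ordered by population, without a difference that could be called. Its hairpin is shown with both arms in capitals.
Mir214: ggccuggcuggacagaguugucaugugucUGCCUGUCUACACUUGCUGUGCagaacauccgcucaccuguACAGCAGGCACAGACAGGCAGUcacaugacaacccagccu
The mean over its 2 probes was -0.21, 6.45 and 8.74 intensity units on P4 replicates 1, 2 and 3, against -1.70, -1.48 and -3.50 units on P5 replicates 1, 2 and 3. Negative values are spots dimmer than the fitted background. None of its 40 spots was well above background on any array. Every P4 array was above every P5 array, by the mean and by each of the 2 probes. Among the miRNAs not detected on the same array, its signal was higher than 74.2%, 92.6% and 97.4% on P4 replicates 1, 2 and 3, and than 52.5%, 51.2% and 19.0% on P5 replicates 1, 2 and 3.

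Over the 772 miRNAs detected on no array, miR-214-3p had the largest difference in intensity between the populations, 4.99 ± 4.65 units in P4 and -2.22 ± 1.11 units in P5 (SD, n = 3 each). With the arrays scaled it took place 2 of 772, behind miR-127-3p. Of these 772 miRNAs 46, or 5.96%, had every P4 array above every P5 array in intensity, and 24, or 3.11%, after scaling. An exact permutation test of 3 against 3 arrays cannot go below p = 0.1, and the miRNA was not part of the fit. When all 1247 miRNAs were fitted without a filter, its floored values differed by 0.17 ± 0.17 (SE) with an adjusted p of 0.411 (limma). At this sensitivity a difference in miR-214-3p was thus not callable, and no fold is given, since both populations were below detection.

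miR-214-5p, the other arm of the hairpin, gave no such order. Its 4 probes averaged -3.48, -1.96 and -2.68 units in P4, against -3.19, -2.65 and -3.28 units in P5. The populations overlapped, and its difference of 0.33 units took place 218 of the 772 undetected miRNAs. miR-761, with the seed of miR-214-3p, averaged -3.37 ± 2.74 units in P4 and -1.15 ± 3.50 units in P5 (SD, n = 3 each), and overlapped too.

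**Figure D3:**
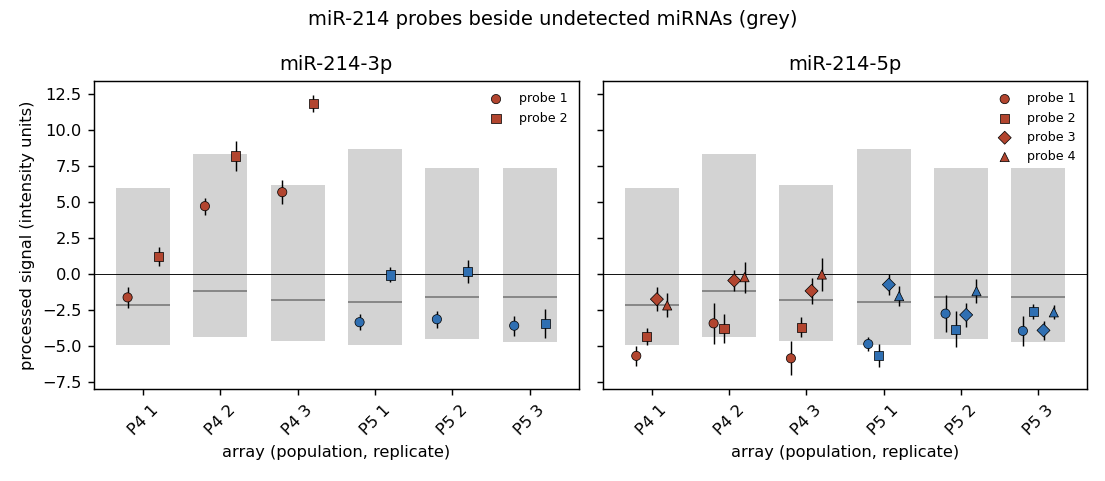
Processed signal in intensity units (vertical axis) of each probe of miR-214-3p and miR-214-5p on the P4 arrays (red) and P5 arrays (blue), with the SE over spots. Grey boxes span the 5th to 95th percentile of the miRNAs not detected on that array, with their median as a line. Probe 2 of miR-214-3p reached 11.8 units on P4 replicate 3, above the grey box, while every miR-214-5p probe lay below 0 on every array.

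The 250 bases before and 50 bases after the annotated start of Dnm3os, the host of Mir199a-2 and Mir214, are given because arms of these 2 hairpins share this transcript. They are from RefSeq (GRCm38.p6, chr1:162217373-162217672, plus strand), with the match to the CArG box in capitals.
Dnm3os: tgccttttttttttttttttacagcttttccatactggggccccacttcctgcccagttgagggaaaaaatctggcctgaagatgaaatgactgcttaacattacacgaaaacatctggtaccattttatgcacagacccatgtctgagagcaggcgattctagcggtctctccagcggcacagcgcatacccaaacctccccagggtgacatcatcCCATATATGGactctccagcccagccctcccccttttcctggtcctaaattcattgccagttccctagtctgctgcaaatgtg
The CArG box is the motif bound by serum response factor, a regulator of contractile genes. It was searched on both strands after the sequence had been read. It matched once, beginning at position -33 relative to the start, and 1.63% of 32851 windows of the same length hold a match. The E-box, CANNTG, the motif class bound by Twist1, was matched at 3 places, and 72.3% of the windows hold at least 1. No binding was measured here, and a match describes letters only.

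The 3 miR-199 arms varied together among arrays of a population, most of all in P4. The range over the 3 P4 arrays was 1.58 on the log2 scale for miR-199b-5p, 1.55 for miR-199a-3p and 1.06 for miR-199a-5p. The median range was 0.43 over the 309 tested miRNAs detected on all P4 arrays, among which these arms took places 5, 8 and 22. Each was lowest on P4 replicate 1 and highest on P4 replicate 3, and so was the undetected signal of miR-214-3p. Without P4 replicate 3 the differences were 3.38 for miR-199a-5p, 3.07 for miR-199a-3p and 3.14 for miR-199b-5p, and all 3 were called.

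On the P4 arrays miR-199b-5p kept a steadier ratio to miR-199a-3p than miR-199a-5p did, while on the P5 arrays the spread of the 2 ratios was alike in size (SD 0.090 and 0.082, n = 3). The log2 ratio of 2 members has no meaning as a level, since probes differ in brightness, but its change from array to array does not depend on the scaling. The ratio of miR-199b-5p to miR-199a-3p was -1.09, -1.08 and -1.06 in P4, against -1.12, -1.09 and -1.26 in P5. It was almost constant over the P4 arrays (SD 0.015, n = 3). The ratio of miR-199a-5p to miR-199a-3p was -1.42, -1.37 and -1.92 in P4 (SD 0.30, n = 3), against -1.65, -1.75 and -1.81 in P5. The ratio of miR-199a-5p to miR-199b-5p was -0.33, -0.29 and -0.86 in P4, against -0.53, -0.66 and -0.56 in P5. Among the P4 arrays this ratio was lowest on replicate 3, by the mean and by all 4 pairs of probes. The SE over spots was 0.034, 0.025 and 0.020 on the P4 arrays and 0.077, 0.078 and 0.13 on the P5 arrays, which covers the error within an array only. The P5 ratios rest on signal near background, since miR-199a-5p was not detected on P5 replicates 1 and 3 and miR-199b-5p not on replicate 3.

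Whether the members differed in their response was tested on these ratios by 2-sided exact permutation over the arrays. The ratio of miR-199a-5p to miR-199b-5p differed by 0.086 between P4 and P5 (exact p = 0.7). That of miR-199a-5p to miR-199a-3p differed by 0.17 (exact p = 0.4) and that of miR-199b-5p to miR-199a-3p by 0.080 (exact p = 0.2). The p-values adjusted over the 3 pairs were 0.6 to 0.7, and 0.1 is the smallest p that 3 against 3 arrays allow, so the test could not show a difference at 0.05.

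Several markers of other cell types were higher in P4, as the miR-199 arms were, while others were not called or not detected. Summed over the 3 arms, scaled signal was 1.05 to 2.92 in P4 and 0.13 to 0.16 in P5. The list of fibroblasts and other mesenchyme, taken without the members, had 12 miRNAs on the array. Of its 8 tested miRNAs 7 were called higher in P4, against 13.8% of all tested miRNAs. These 7 are both arms of miR-143, of miR-145a and of miR-140, and miR-195a-5p. Arms of the same hairpin share a precursor, so the 7 are not separate markers. Among the 7, miR-143-5p was detected on no P5 array and entered the test through P4 alone. The median difference of the list was 2.65, against 0.0013 over all tested miRNAs, and its summed scaled signal 21.7 to 36.1 in P4 and 2.93 to 3.55 in P5. Its leading members, miR-143-3p (5.01 ± 0.24, SE), miR-145a-5p (4.90 ± 0.24) and miR-145a-3p (4.30 ± 0.17), are known from smooth muscle as well, and from the contractile myoepithelium that the CD29hi gate holds. The remaining mesenchyme markers differed less, such as miR-140-3p by 1.35 ± 0.19 and miR-195a-5p by 0.91 ± 0.17. miR-195a-5p was not called with no scaling (0.25), the authors' table (0.58), no filter or the slide row as a term (0.82). miR-127-3p, miR-411-5p, miR-376a-3p and miR-379-5p were detected on no array.

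Both arms of the endothelial miR-126 were called, with differences of 2.96 ± 0.50 (SE) for the 3p arm and 2.88 ± 0.50 for the 5p arm, and their summed scaled signal was 8.09 to 20.6 in P4 and 0.77 to 2.32 in P5. How the calls of the endothelial and leukocyte markers held under the other settings is not given here. miR-199a-3p, with a larger difference and a smaller SE than either arm of miR-126, had an adjusted p of 0.0445 (limma) with no filter. Of the 6 leukocyte markers 2 were called higher, miR-150-5p (2.20 ± 0.39) and miR-146a-5p (2.03 ± 0.20), against 13.8% of all tested miRNAs. The others, both arms of miR-142, miR-223-3p and miR-155-5p, were not called. miR-146a-5p was detected on 2 of the P5 arrays and entered the test through P4 alone. The sum of the leukocyte markers was 1.11 to 3.61 in P4 and 0.73 to 1.01 in P5. The 3 tested skeletal muscle markers, led by miR-1a-3p (4.11 ± 0.19), were called higher, and their sum was 0.47 to 0.79 in P4 and 0.022 to 0.032 in P5. They were detected on no P5 array and entered the test through P4 alone. Their P5 values all stand at the floor, so their differences are distances to it and no result is read from their calls. Agilent's flag called miR-206-3p, the remaining muscle marker, on 0 arrays. No erythroid marker was tested, with sums of 0.036 to 0.055 in P4 and 0.016 to 0.029 in P5. The part of these other cells in the miR-199 differences was not tested.

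The labels of the populations were checked on epithelial markers. All 5 miRNAs of the miR-200 family on the list, known to hold the epithelial state by repressing Zeb1 and Zeb2, were called lower in P4 (14.1% of the tested miRNAs were), with a median of -1.33. How the miR-200 calls held under the other settings is not given here. The basal and luminal lists were mixed. Of the 3 basal markers miR-205-5p was higher in P4 (2.88 ± 0.28, SE), miR-203-3p lower (-2.70 ± 0.28) and miR-31-5p not called (0.62 ± 0.27, or -0.04 with no scaling). Of the luminal markers miR-148a-3p (-3.64 ± 0.21) and miR-210-3p (-2.60 ± 0.15) were lower in P4. miR-210-3p was detected on no P4 array and entered the test through P5 alone, so its difference is a distance to the floor. miR-342-3p was higher in P4 (0.83 ± 0.18) and not called with no scaling (0.17), the authors' table (0.50) or no filter. miR-375-3p, the remaining luminal marker, was detected on no array.

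**Figure D4:**
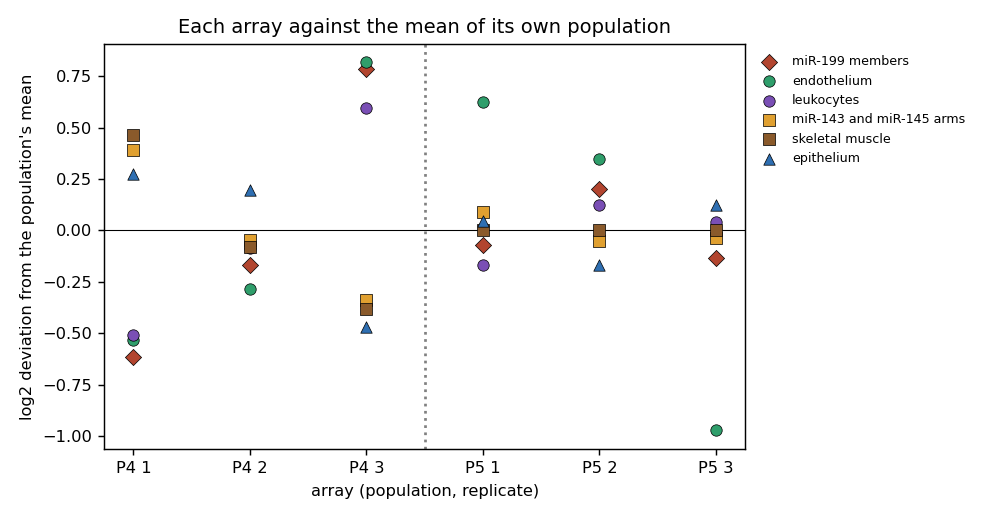
Deviation of each array from the mean of its own population (vertical axis, log2) for the mean of the miR-199 members and of 5 marker sets, with P4 arrays left and P5 arrays right of the dotted line. On P4 replicate 3 the miR-199 members (red), endothelial (green) and leukocyte (purple) sets lie at 0.78, 0.82 and 0.59, and the other sets lie below 0.

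Among the P4 arrays the miR-199 arms kept the order of the endothelial and leukocyte sets. They did not keep that of the contractile, muscle and remaining mesenchyme sets. The mean of the 3 arms deviated from the P4 mean by -0.62, -0.17 and 0.78 on replicates 1, 2 and 3. The endothelial set deviated by -0.53, -0.28 and 0.82 and the leukocyte set by -0.51, -0.09 and 0.59. Within the leukocyte set 4 of 6 markers, both arms of miR-142, miR-150-5p and miR-155-5p, had this order. miR-223-3p had the opposite one, at -2.20, -2.54 and -2.57, and miR-146a-5p was lowest on replicate 3, at -3.16, -2.92 and -3.24. The 4 arms of miR-143 and miR-145 went the other way, at 0.39, -0.05 and -0.34, as did the skeletal muscle set at 0.46, -0.08 and -0.38. The 4 other tested mesenchyme markers also went the other way on average, less far, at 0.19, -0.05 and -0.14. The miR-200 family, the epithelial set, was at 0.27, 0.20 and -0.47. Among the P5 arrays the arms did not follow the endothelial set: they deviated by -0.07, 0.20 and -0.13, while that set deviated by 0.63, 0.35 and -0.97. The P4 order was not particular to these sets. miR-322-5p (-1.85, -1.34 and -0.29) and miR-335-5p (-4.26, -3.44 and -2.79), on none of the lists, had it too. The difference of miR-322-5p between the populations was -0.43 ± 0.41 (SE). How many of all tested miRNAs had this order was not counted. With 3 arrays in each population these orders are a description without a test.

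The miRNAs whose values were most like those of miR-199a-3p over the 6 arrays were miR-139-5p (Pearson r = 0.99), miR-150-5p (0.988), miR-338-3p (0.977), miR-218-5p (0.971), miR-350-3p (0.968), miR-211-5p (0.960), miR-204-5p (0.956) and miR-126-3p (0.955). The other members were closer still, miR-199b-5p at 0.9996 and miR-199a-5p at 0.995. The 6 points fall into 2 clusters, 1 per population, so that a high r needs little more than a difference between the populations, and all arrays share 1 slide and 1 scan. Of the 8, 5 were detected on no P5 array and stand at or near the floor there. miR-150-5p, of leukocytes, and miR-126-3p, of endothelium, also had the order of miR-199a-3p within P4, at -2.38, -2.0 and -0.79 and at 2.70, 2.89 and 4.04. So did miR-350-3p, on neither list, over a smaller range at -2.97, -2.88 and -2.86.

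miRNAs tied to epithelial-mesenchymal transition (EMT) in either direction moved both ways. Of 18 on the list 17 were tested, 5 were called higher in P4, 7 lower and 5 were not called, with a median of -0.49. Over all tested miRNAs 13.8% were called higher and 14.1% lower. The largest differences among the higher were those of miR-205-5p, given above, miR-222-3p (2.60 ± 0.26, SE) and miR-221-3p (2.27 ± 0.17). Among the lower they were those of miR-34a-5p (-3.20 ± 0.31), miR-141-3p (-1.74 ± 0.34) and miR-200c-3p (-1.61 ± 0.22). miR-34a-5p was detected on 2 of the P4 arrays and entered the test through P5 alone. miR-10b-5p, which Twist1 is also known to induce, was higher by 1.19 ± 0.28 and was not called under 5 settings, which were no scaling (0.53), the authors' table (0.86), no filter, detection on at least 1 array and the slide row as a term (0.94). It was not called without P5 replicate 2 either (1.05). On the P4 arrays it was at 0.27, 0.36 and 1.19, against -0.33, -0.85 and -0.54 in P5, so it too was highest on P4 replicate 3.

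The direction of the miR-199 differences held under every setting in which each was tested, but their sizes depended on the treatment of the background. With normexp background correction they were 2.22 for miR-199a-3p, 1.77 for miR-199b-5p and 1.56 for miR-199a-5p, and 14.9% of the tested miRNAs were called higher. With the authors' processed values, log2 values from Agilent's summed signal without a floor, they were 3.19, 5.35 and 7.71 in the same order, and miR-199b-5p was not called (adjusted p = 0.096, limma), while 8.38% of the tested miRNAs were called higher. With no filter all 3 were called among the 2.00% of 1247 miRNAs that were called higher. The summed signal is 0.1 units where a miRNA is not detected, so the last 2 sizes are distances to a set number on 1 and 2 of the P5 arrays.

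**Figure D5:**
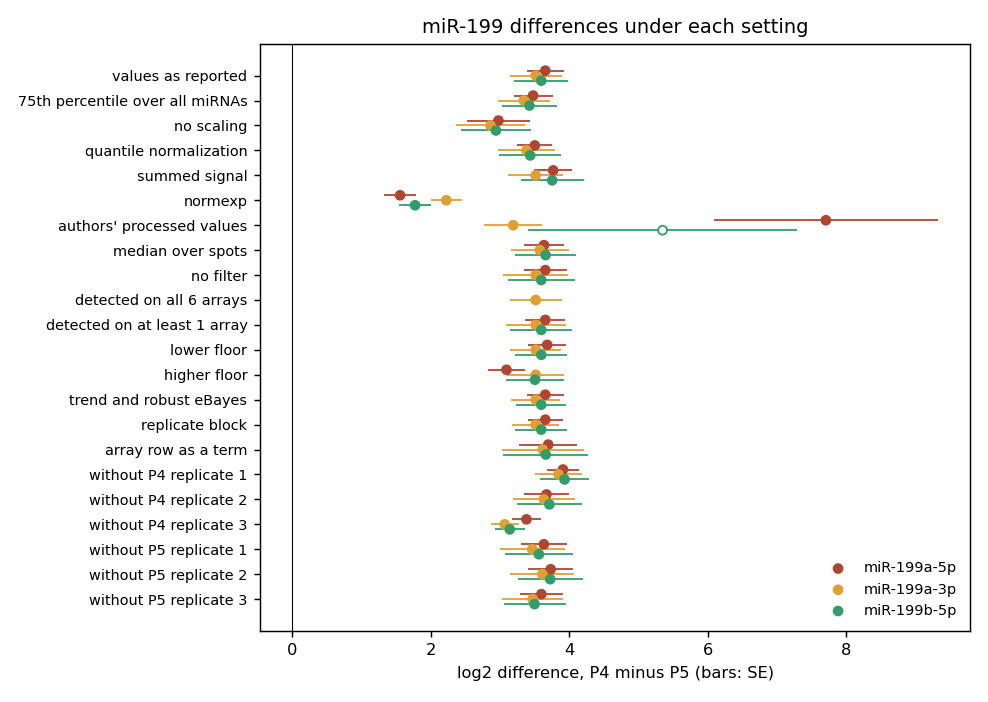
Log2 difference P4 minus P5 with its SE (horizontal axis) of miR-199a-5p, miR-199a-3p and miR-199b-5p under each processing setting (rows). Filled points passed an adjusted p of 0.05, and the open point, for miR-199b-5p in the authors' table, did not. All points lie right of 0.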

How the data were processed

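RNA enriched for small RNA was Cy3-labelled and hybridised to single-colour arrays, per the labels' protocols. The authors deposited scanner files of spot intensity. Per the file headers they were read with Feature Extraction 11.0.1.1 (11.0 per the submitters' processing notes), background-subtracted and not scaled between arrays. The authors also deposited a log2 table. Its columns equal the log2 of Agilent's summed signal after adding 1 number for each array and 1 for each miRNA, the second of unknown origin, within 7.8e-06. The scale and direction are thus known and the centring only in part, and its column medians were 0.42, -0.36 and -0.06 in P4 and -0.56, -0.47 and 0.06 in P5.

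Outlier and control spots were left out, and signal was averaged per probe and then per miRNA. The 75th percentile of the 293 miRNAs with detection on all 6 arrays was the divisor of each array. Values under a floor (95th percentile of undetected scaled signal, median of the 6 arrays) were set to it before log2 was taken. The 370 miRNAs detected on all 3 arrays of a population were tested with limma 3.58.1 in R 4.3.3, 2-sided, without a block, after the steps were tested on simulated data. No spot was saturated. All arrays lay on 1 slide and in 1 scan, so slide could not be a term. The named miRNAs are the members, their seed relatives, the 8 most like miR-199a-3p, and from each list up to 3 called by size (else the 2 brightest). The CArG box, miR-127-3p, miR-10b-5p and the markers named in addition were chosen after their values were seen. Of 58 list entries 56 matched a name on the array. The members, lists and tests were chosen with earlier results of these data known. The number of arrays limits precision.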

Additional observations from a re-analysis of the deposited data

How the results depend on the processing

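miR-199a-3p kept its direction and its call under all 15 settings other than leaving out an array (differences of 2.22 to 3.62) and miR-199a-5p under all 14 it entered (1.56 to 7.71). miR-199b-5p did so under 13 of 14, the exception being the authors' processed values (5.35, adjusted p = 0.096, limma). The 2 5p arms dropped out of the test when detection on all 6 arrays was required. Without each array in turn the differences were 3.38 to 3.91 for miR-199a-5p, 3.07 to 3.85 for miR-199a-3p and 3.14 to 3.93 for miR-199b-5p. The counts of called miRNAs were less steady: 51 higher and 52 lower in the values reported, 23 higher with no scaling, 25 lower with normexp, 31 higher and 81 lower with the authors' processed values, 25 and 22 with no filter, and 29 and 23 with the slide row as a term. Without each array in turn they were 43 to 72 higher and 40 to 56 lower. No scaling moved the median difference of all tested miRNAs to -0.64, so differences are relative to it. The slide row term rests on P5 replicate 1, the 1 P5 array in the row of the P4 arrays. The cause of these shifts was not tested. The replicate numbers were not taken to pair the arrays, as same-numbered deviations correlated at -0.070, 0.37 and 0.086. With them as a replicate block 54 miRNAs were higher and 57 lower, and the members kept their differences (3.65, 3.52 and 3.60) and calls. Signal near background limits the P5 values of both 5p arms and all values of miR-214.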

Other observations

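Among the miRNAs detected on no array, miR-127-3p, a mesenchyme marker chosen after its values were seen, came next to miR-214-3p in the size of its difference. Its signal was 2.44, 5.77 and 10.5 intensity units on P4 replicates 1, 2 and 3, against -0.558, 0.960 and -1.65 units on P5 replicates 1, 2 and 3. The populations did not overlap, as for 5.96% of the 772 such miRNAs, and P4 replicate 3 was again highest.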
